A study of Homo sapiens with 5 samples.

Results

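The genes described here code for molecular chaperones, the proteins that help other proteins fold, and for their closest helpers. They were taken by symbol from a table of ribosome footprints: the HSP families A, B, D, E, H and HSP90, the DNAJ families A, B and C, CCT2 to CCT8, BAG1 to BAG6, and TCP1, HSF1, HSF2, AHSA1, STIP1, PTGES3 and CDC37. This gave 95 of the 17297 genes in the table. By textbook location, 61 were grouped as cytosolic, 14 as belonging to the endoplasmic reticulum (ER), 10 as mitochondrial, 5 as nuclear and 5 as other. The ER group includes proteins anchored in the ER membrane, such as DNAJB14, whose J-domain lies in the cytosol. Values for the ER group therefore do not describe folding inside the ER alone. The rule itself reads symbols only, but it was set with earlier results of these data known.

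The study profiled ribosomes in HCT116, a human colorectal carcinoma line, in a wild-type (WT) group of 2 libraries and a mutant (MUT) group of 3. MUT cells came from clones edited with CRISPR/Cas9 so that both copies of eIF6 carry the N106S change. eIF6 binds the large ribosomal subunit and keeps it from joining the small one. By the series title, the question was what targeting eIF6 does to ribosomal subunits, mitotic exit and cancer progression. Neither group received a drug. The labels do not say which clone a library came from or whether libraries of a group were separate cultures, so p-values measure only the spread between these libraries, and the edit cannot be told apart from other differences between the clones and the unedited cells. Footprint counts mix mRNA amount with ribosomes per mRNA, and RNA-seq was not analysed here.

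As background, HSP70 proteins grip exposed stretches of unfolded chains in a cycle driven by ATP. J-domain proteins (the DNAJ families) bring clients to HSP70 and start that cycle, and HSPBP1 and BAG proteins such as BAG1 release the nucleotide. HSP90 matures kinases and receptors with co-chaperones such as STIP1, AHSA1, PTGES3 and CDC37, while the TRiC ring encloses actin and tubulin. The ER and the mitochondrion each have their own set, led by HSPA5 and HSP90B1 in the first and by HSPA9, HSPD1 and HSPE1 in the second. The transcription factor HSF1 switches on cytosolic chaperone genes under heat and other stress.

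Library totals ran from 2095217 to 3821176 counts, the smallest in WT replicate 1. Levels are given as counts per 1000000 (CPM) on scaled library sizes, and they are compared between groups for one gene at a time, never between genes, because transcript lengths were not used here. The epithelial keratins KRT8, KRT18 and KRT19 and EPCAM were present, with group means from 55.4 to 502 CPM. Of these epithelial genes KRT8 and KRT19 were higher in MUT (edgeR adjusted p 0.0199 and 0.0463), KRT18 did not pass (0.413), and the adhesion genes EPCAM and CDH1 were lower (0.0087 and 0.00741), CDH1 with a mean of 21.2 ± 0.389 CPM over 2 WT and 11.2 ± 2.00 CPM over 3 MUT libraries (± SD). VIL1, a marker of the gut brush border, had no count in 4 libraries and 0.327 CPM in WT replicate 2. Markers of blood, endothelium, fibroblasts and liver in the table stayed at or below a group mean of 1.33 CPM, except COL1A1 at 7.59 ± 0.564 in WT and 7.39 ± 1.32 in MUT. EIF6 itself had 178 ± 9.16 CPM in WT and 157 ± 10.7 in MUT. Its log2 fold change of -0.17 did not pass (edgeR adjusted p 0.215), and an edit that swaps 1 residue can leave footprint numbers as they were.

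The chaperone genes moved in both directions. Of the 95 genes, 83 had enough counts to be tested, and edgeR's quasi-likelihood test put 7 of these above WT and 14 below it in MUT, with adjusted p under 0.05. That is 25.3% of the tested chaperone genes, beside 22.9% of all 11991 genes tested, where 10% were higher and 12.9% lower. The median log2 fold change was -0.03 for the chaperone genes and 0.0024 for all genes. All MUT libraries lay above all WT libraries for 22 chaperone genes and below for 24, where 50.7% of all tested genes had groups that did not overlap (25.4% above and 25.3% below). The number of chaperone genes that moved was therefore near the background, and which ones moved is described by family below. The balance depended on how libraries were scaled: 33.3% of the chaperone calls were higher in MUT here, 62.5% with upper-quartile scaling (10 higher, 6 lower) and 68.4% with library size only (13 higher, 6 lower). No called gene changed sign in any of the 16 alternative fits. HSF1, HSPD1, HSPE1 and TCP1 kept their calls in all 16. The counts higher and lower were 2 and 8 without WT replicate 1, 6 and 5 without WT replicate 2, 4 and 6 without MUT replicate 1, and 9 and 7 without MUT replicate 3.

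**Figure D1:**
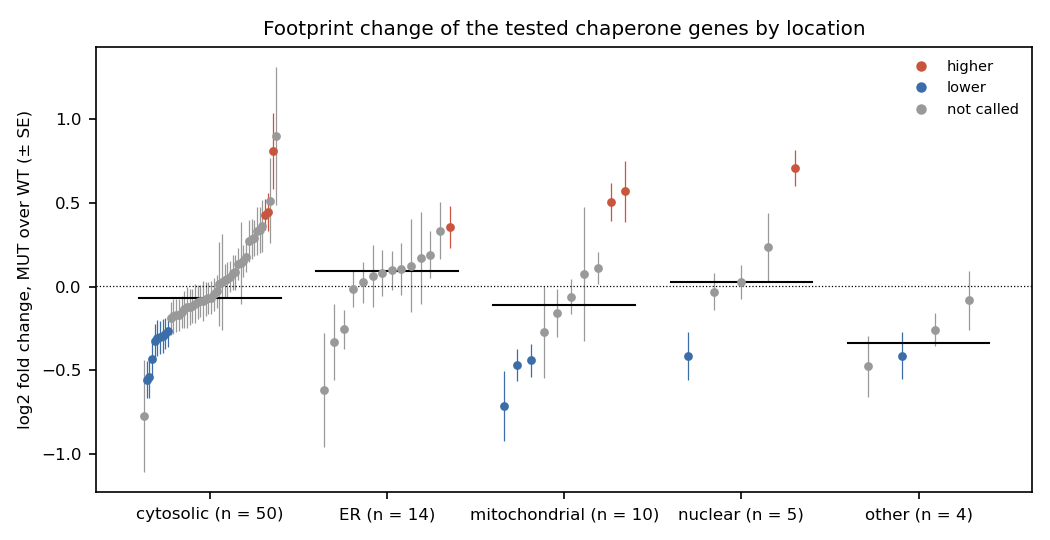
Log2 fold change (MUT over WT, ± SE) of each tested chaperone gene, ordered within its location, with red for genes called higher, blue for lower and grey for genes that did not pass. Solid bars are the medians by location (-0.07 cytosolic, 0.09 ER, -0.11 mitochondrial) and the dotted line is the median of all tested genes. The mitochondrial genes include calls at both ends, while 1 of 14 ER genes was called.

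By location, 3 cytosolic genes were higher and 9 lower of 50 tested, with a median log2 fold change of -0.07. In the ER set 1 was higher and 0 lower of 14, with a median of 0.09, and 2 of the 14 (DNAJC10 and DNAJB14) had an unadjusted p under 0.05. DESeq2 called none of the 14. Of the 10 mitochondrial genes 2 were higher and 3 lower, with a median of -0.11 that was 0.018 without WT replicate 2. These shares of 24%, 7.14% and 50% rest on few genes in 2 of the 3 locations, and the difference between locations was not tested. Summed by location, ER chaperone genes held 0.0691% ± 0.00407 of all counts over the 2 WT libraries and 0.0753% ± 0.000728 over the 3 MUT libraries (means ± SD). These are shares of unscaled totals, and on scaled library sizes the summed ER level was 693 and 736 CPM in WT and 733, 741 and 746 CPM in MUT, so the groups overlapped. Mitochondrial genes held 0.164% ± 0.0152 and 0.150% ± 0.00534 of unscaled totals, and cytosolic genes 1.30% ± 0.0426 and 1.28% ± 0.048. On scaled library sizes the mitochondrial sums were 1605 and 1789 CPM in WT and 1470, 1533 and 1415 CPM in MUT. The cytosolic sums were 13290 and 13600 CPM in WT and 12530, 13100 and 12050 CPM in MUT. For both locations the scaled MUT sums lay below both WT sums, and these sums were not tested.

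The cytosolic HSP70 family showed no call. HSPA8, the constitutive HSP70, had 1114 and 1027 CPM in WT and 1010, 1035 and 978 CPM in MUT. Its groups overlapped, and its log2 fold change of -0.09 (SE 0.0971) had an adjusted p of 0.554. The heat-inducible HSPA1A had 106 and 128 CPM in WT and 146, 154 and 131 in MUT. All MUT libraries lay above both WT libraries, and the log2 fold change of 0.29 (SE 0.108) just missed the threshold, with an adjusted p of 0.0547. It passed in 8 of the alternatives, among them library size only (0.0193) and the fit without MUT replicate 3 (0.0276). Those 8 include the replicate block, in which MUT replicate 3 adds nothing to the estimate. Without WT replicate 2 the log2 fold change of HSPA1A was 0.449. HSPA1B stood at 190 and 199 against 225, 226 and 210 CPM, again without overlap, with an adjusted p of 0.174. These genes have nearly the same coding sequence, so how reads were split between them is uncertain. HSPH1, which exchanges the nucleotide of HSP70, had 277 and 335 CPM in WT and 309, 347 and 294 in MUT, with the groups intermixed. Of the 10 cytosolic HSP70 genes tested, 0 passed in edgeR and 0 in DESeq2. An unadjusted p under 0.05 was reached by 3, HSPA1A and, named after their values were seen, HSPA12A and HSPA4L, each with all MUT libraries above WT (log2 fold change 0.28 and 0.27, adjusted p 0.0918 and 0.114). The strictly stress-induced HSPA6 had 1 to 5 counts per library and was not tested.

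Footprints on HSP90 itself did not pass, while its co-chaperones split. HSP90AA1 had 1396 and 1532 CPM in WT and 1291, 1371 and 1237 in MUT, below WT in every library, with a log2 fold change of -0.17 (SE 0.1) and an adjusted p of 0.223. HSP90AB1 had 1326 and 1309 CPM in WT and 1295, 1322 and 1139 in MUT, with overlap. The co-chaperone CDC37, which delivers kinases to HSP90 (gene ID 11140, chromosome 19, 10391133 to 10403542, GRCh38.p14), was at 192 and 198 CPM in WT and 269, 271 and 250 in MUT. Every MUT library was above both WT libraries, and CDC37 rose 1.35-fold (log2 0.43, SE 0.0945, adjusted p 0.00216). That call ended only with the trend of gene span and gene density removed (0.0525). PTGES3, the p23 protein that holds HSP90 in its closed form, went the other way, from 495 and 440 CPM to 358, 361 and 414. It fell 1.23-fold (log2 -0.30, SE 0.0983, adjusted p 0.0276), and lost the call without WT replicate 1 (0.166), MUT replicate 1 (0.149) or MUT replicate 2 (0.0921). Upper-quartile scaling (0.0609), library size only (0.0798) and thinning (0.0668) ended it too. STIP1, which links HSP70 to HSP90, had 508 and 489 CPM in WT and 565, 584 and 513 in MUT. Its groups did not overlap, but the adjusted p was 0.271. AHSA1, the activator of the HSP90 ATPase, had 263 and 222 against 231, 231 and 249 CPM, with an adjusted p of 0.866. Counted against HSP90AB1 in the same library, STIP1 stood at 0.383 and 0.374 in WT and at 0.436, 0.442 and 0.450 in MUT.

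The TRiC ring fell in part. It is built from 8 different subunits in each ring, encoded by TCP1, CCT2, CCT3, CCT4, CCT5, CCT6A, CCT7 and CCT8. Of these 8, 4 were lower in MUT and 0 higher, against 12.9% lower among all tested genes. The median log2 fold change of the 8 was -0.23, and 6 had all MUT libraries below both WT libraries, against 25.3% of all genes. TCP1 (gene ID 6950, chromosome 6, 159778498 to 159789602) had 536 and 602 CPM in WT and 408, 442 and 416 in MUT, the widest gap in the ring. It fell 1.35-fold (log2 -0.43, SE 0.095, adjusted p 0.00212) and held in every alternative, where its log2 fold change ran from -0.519 to -0.337.

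The other subunits moved less. CCT8 had 377 and 452 CPM in WT and 319, 371 and 305 in MUT, so that WT replicate 1 lay close to MUT replicate 2. CCT4 had 520 and 518 against 427, 441 and 414 CPM, and CCT2 530 and 541 against 460, 462 and 413, each with clear space between the groups. They fell 1.25-fold, 1.21-fold and 1.2-fold, with adjusted p of 0.0248, 0.0299 and 0.0427. CCT8 lost its call without WT replicate 2 (0.357), MUT replicate 1 (0.13) or MUT replicate 3 (0.102), CCT4 without any single library (0.0548 to 0.115) and CCT2 likewise (0.0632 to 0.151). Removing the trend of gene span and density also ended the calls of CCT8 (log2 -0.213, adjusted p 0.139), CCT4 (-0.125, 0.35) and CCT2 (-0.174, 0.188), which left TCP1 and CCT3 as the subunits called lower in that fit. At the other end CCT3 had 658 and 638 CPM in WT and 629, 650 and 573 in MUT, with overlap and an adjusted p of 0.64. With the trend of gene span and density removed, CCT3 was instead called lower (log2 -0.275, 0.0347). CCT5 had 530 and 520 against 463, 483 and 453 CPM, CCT7 had 473 and 499 against 441, 465 and 410, and CCT6A had 439 and 472 against 376, 444 and 382. These 3 did not pass (0.193, 0.265 and 0.174). The fitted value was negative for all 8 subunits here and in the other scalings, except CCT3 with library size only (0.00426). The number of subunits called lower was 1 with upper-quartile scaling or library size only. It was 2 when WT replicate 1 or MUT replicate 2 was left out, and 1 when any other single library was. The ninth gene of the set, CCT6B, a testis form, had 2 to 7 counts per library and was not tested. Together the 9 genes held 0.3885% (95% exact binomial interval 0.3801% to 0.397%) and 0.4148% (0.4077% to 0.422%) of all counts in the WT libraries. In MUT they held 0.3602% (0.3536% to 0.367%), 0.38% (0.3738% to 0.3863%) and 0.3434% (0.3376% to 0.3493%), below both WT libraries. These intervals cover counting error only.

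**Figure D2:**
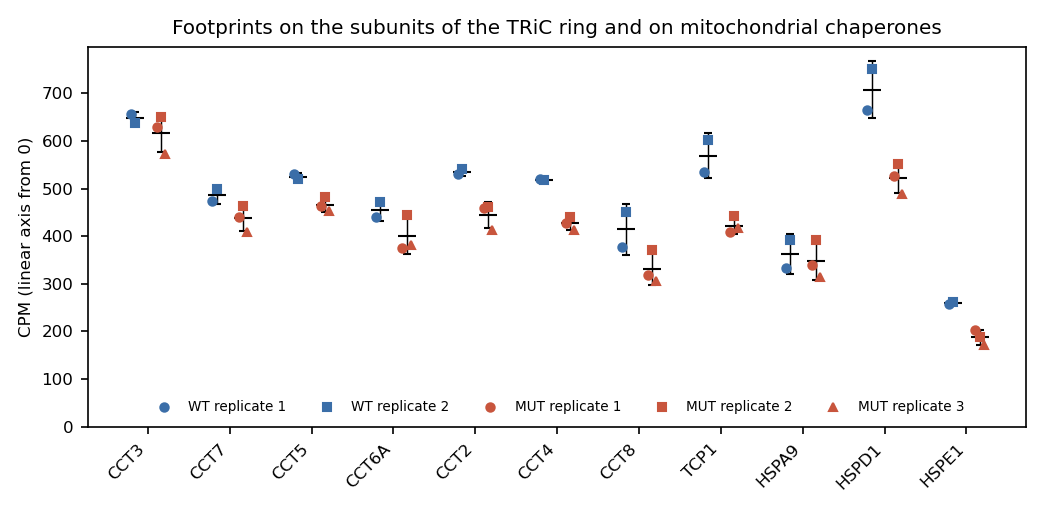
CPM of the 8 TRiC subunit genes and of HSPA9, HSPD1 and HSPE1 in each library (blue WT, red MUT, one marker shape per replicate number), with black bars for group means ± SD (n = 2 WT, n = 3 MUT). MUT libraries lie below both WT libraries for TCP1 (408 to 442 against 536 and 602 CPM), HSPD1 and HSPE1, and mix with them for CCT3 and HSPA9.

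Among the mitochondrial chaperones, the folding chamber fell and HSP70 did not pass the test. HSPD1 (HSP60) forms the chamber and HSPE1 (HSP10) is its lid. HSPD1 (gene ID 3329, chromosome 2, 197486584 to 197500274) had 666 and 750 CPM in WT and 527, 552 and 489 in MUT. HSPE1 (gene ID 3336, chromosome 2, 197500379 to 197503449) had 257 and 262 CPM in WT and 204, 188 and 171 in MUT. For both genes every MUT library was below both WT libraries. HSPD1 fell 1.36-fold (log2 -0.44, SE 0.0973, adjusted p 0.00221) and HSPE1 1.38-fold (log2 -0.47, SE 0.0955, adjusted p 0.00109), and both calls held in all 16 alternatives. The ratio of HSPE1 to HSPD1 counts was 0.386 and 0.349 in WT and 0.387, 0.340 and 0.351 in MUT. Reads of HSPE1 can also belong to the readthrough gene HSPE1-MOB4, listed separately with 126 and 138 CPM in WT and 107, 111 and 114 in MUT (adjusted p 0.062), and the sources used here do not say how the deposited counting divided them. HSPD1, HSPE1 and HSPA8 also have many processed pseudogene copies, which makes their counts uncertain in the same way. HSPA9, the mitochondrial HSP70, had 333 and 393 against 340, 393 and 314 CPM. Its groups overlapped, and its log2 fold change was -0.06 (SE 0.105, adjusted p 0.714).

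HSPD1 and HSPE1 lie head to head and share a promoter region, which is shown because the pair fell together. The RefSeq window of HSPE1 (250 bases before its start and 50 after, chr2:197500129-197500428, plus strand, GRCh38.p14) shares 204 bases with that of HSPD1. Capitals mark the 104 bases between the starts of HSPD1, read leftwards, and HSPE1, read rightwards.
HSPE1: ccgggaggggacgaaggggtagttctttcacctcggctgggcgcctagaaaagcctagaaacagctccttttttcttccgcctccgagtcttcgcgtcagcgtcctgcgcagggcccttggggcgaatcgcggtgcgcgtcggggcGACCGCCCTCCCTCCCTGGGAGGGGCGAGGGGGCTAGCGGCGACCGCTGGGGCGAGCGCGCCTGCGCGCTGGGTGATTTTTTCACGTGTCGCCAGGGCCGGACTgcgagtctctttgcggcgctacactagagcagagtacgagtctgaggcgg
Neither gene's window held a match to the heat shock or ER stress elements described further on.

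Mitochondrial J-domain proteins split, with 2 higher and 1 lower of 7 tested, beside 10% higher and 12.9% lower of all tested genes. DNAJC11, a protein of the complex that organises the inner membrane, had 80.4 and 95.8 CPM in WT and 117, 126 and 135 in MUT. It rose by 0.50 on the log2 scale (SE 0.111, adjusted p 0.00224), though not without WT replicate 1 (0.0533). DNAJC30, which takes part in the upkeep of respiratory complex I, had 18.5 and 30.1 CPM in WT and 37.2, 37.1 and 37.5 in MUT. The MUT libraries were close together and the WT libraries apart, and its rise of 1.48-fold (0.0264) was lost without WT replicate 1 (0.299), without MUT replicate 1 (0.0719) and in DESeq2 (0.12). DNAJC19, a part of the motor that pulls proteins through the inner membrane, had 29.0 and 24.8 CPM in WT and 13.4, 15.5 and 19.5 in MUT. It fell 1.64-fold (0.0164), a call lost without WT replicate 1 (0.118), WT replicate 2 (0.0667) or MUT replicate 1 (0.0754) and in DESeq2 (0.0998). DNAJA3, the mitochondrial partner of HSPA9, had 160 and 164 against 172, 169 and 186 CPM, without overlap but with an adjusted p of 0.432.

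Cytosolic J-domain genes gave 2 higher and 3 lower calls of 17 tested, beside 10% higher and 12.9% lower of all tested genes. DNAJB2, which hands ubiquitin-tagged clients to the proteasome, stood at 13.5 and 15.7 CPM in WT and 31.5, 20.5 and 26.2 in MUT. It rose 1.75-fold (log2 0.81, SE 0.226, adjusted p 0.0116), on low counts of 27 and 48 in WT and 99, 78 and 102 in MUT. The call was lost without WT replicate 1 (0.0956), WT replicate 2 (0.0751) or MUT replicate 1 (0.0707) and in DESeq2 (0.067). DNAJA4 had 79.9 and 91.5 CPM in WT and 108, 120 and 125 in MUT, and rose 1.36-fold (0.00567). Without WT replicate 1 its adjusted p was 0.0828.

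The lower ones were DNAJB4, DNAJC2 and DNAJA2. DNAJB4 had 104 and 121 CPM in WT and 80.5, 73.5 and 77.7 in MUT, a fall of 1.47-fold (0.000928) that was lost only without WT replicate 2 (0.067). DNAJC2 works on the ribosome, where it helps HSP70 meet the chain as it leaves the exit tunnel. It had 85.4 and 96.8 CPM in WT and 54.7, 67.9 and 65.7 in MUT, all below WT. DNAJC2 fell 1.45-fold (log2 -0.54, SE 0.122, adjusted p 0.00271), again lost only without WT replicate 2 (0.104). DNAJA2, a main J-domain partner of HSPA8, had 124 and 142 against 114, 110 and 103 CPM and fell 1.23-fold (0.0377). It lost its call in 10 alternatives, among them those without MUT replicate 1 (0.07), MUT replicate 2 (0.0668) or MUT replicate 3 (0.0947). DESeq2 (0.158), no count filter (0.0574), upper-quartile scaling (0.0751) and library size only (0.118) ended it too. So did thinning (0.249) and removal of the trend of gene span and density (0.16). Without WT replicate 2 the log2 fold change of DNAJA2 was -0.185.

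Other well-known J-domain genes did not pass. DNAJB1, the stress-induced partner of HSPA1A, had 252 and 251 CPM in WT and 254, 258 and 274 in MUT. Its adjusted p was 0.692. DNAJA1 had 232 and 273 against 230, 266 and 197 CPM (0.402). DNAJC21, which takes part in the late assembly of the large ribosomal subunit, the subunit that eIF6 binds, had 128 and 136 against 108, 114 and 129 CPM. WT replicate 1 and MUT replicate 3 overlapped, with a log2 fold change of -0.18 (SE 0.103) and an adjusted p of 0.227. Over all locations 5 of 39 tested J-domain genes were higher and 4 lower, with a median of 0.04. That is 23.1% called, near the 22.9% of all tested genes.

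Of BAG1 to BAG6 and HSPBP1, 0 of 7 passed in edgeR, and DESeq2 called none of them. HSPBP1 alone had an unadjusted p under 0.05, with 43.4 and 49.04 CPM in WT and 62.0, 63.7 and 50.3 in MUT (adjusted p 0.0981). It was named after its values were seen. BAG6, a chaperone for tail-anchored membrane proteins, had 221 and 200 CPM in WT and 216, 245 and 229 in MUT (adjusted p 0.329). BAG3, which steers clients to autophagy and is a target of HSF1, had 110 and 131 against 127, 132 and 127 CPM (0.587). BAG1, BAG2, BAG4 and BAG5 had log2 fold changes between -0.10 and -0.05, with adjusted p from 0.547 to 0.776.

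Small heat shock proteins, which hold unfolded chains without ATP, were mostly too scarce to test. Of 5 such cytosolic genes 2 were tested, HSPB8 and HSPB1, and their fitted changes had opposite signs. For HSPB8, named after its values were seen, counts were only 12 and 9 in WT and 29, 29 and 27 in MUT. Every MUT library was above both WT libraries (log2 0.90, SE 0.411), but the gene was not called (edgeR adjusted p 0.117). HSPB1 (HSP27) had 283 and 214 CPM in WT and 212, 203 and 184 in MUT, so that WT replicate 2 lay just above MUT replicate 1. Its call (1.23-fold lower, adjusted p 0.042) was lost in 9 alternatives and rested on WT replicate 1, without which the log2 fold change was -0.108 (0.556). It was also lost without MUT replicate 1 (0.0788) or MUT replicate 3 (0.134). HSPB11, a protein of cilia that shares the symbol but not the folding role, fell 1.33-fold (0.0325), with 61.4 and 74.5 CPM in WT and 56.6, 54.8 and 44.1 in MUT. That call ended in 8 of the 16 alternatives, among them DESeq2 (0.169), upper-quartile scaling (0.0543), library size only (0.0786) and the fits without WT replicate 2 (0.438), MUT replicate 1 (0.0526) or MUT replicate 3 (0.12).

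In the ER set a single gene passed, and neither of its main chaperones did. HSPA5 (BiP), the HSP70 of the ER, had 88.4 and 111 CPM in WT and 107, 117 and 100 in MUT, with overlap. Its log2 fold change was 0.10 (SE 0.115, adjusted p 0.578). HSP90B1 (GRP94), the HSP90 of the ER, had 128 and 163 against 142, 154 and 141 CPM, for a log2 fold change of -0.02 (SE 0.105, adjusted p 0.935). The WT libraries lay on either side of the MUT libraries. The one call was DNAJC10, a reductase of the ER that breaks wrong disulphide bonds, with 56.9 and 67.0 CPM in WT and 73.8, 87.9 and 77.7 in MUT. It rose 1.28-fold (log2 0.35, SE 0.126, adjusted p 0.0442). The call was lost in 7 alternatives, among them DESeq2 (0.171) and the fit without any single library: WT replicate 1 (0.284), WT replicate 2 (0.0741), MUT replicate 1 (0.0618), MUT replicate 2 (0.157) and MUT replicate 3 (0.0544). DNAJB14, anchored in the ER membrane with its J-domain in the cytosol, had 80.4 and 89.3 against 69.7, 67.4 and 77.2 CPM (0.119).

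The heat shock factors moved apart. HSF1 (gene ID 3297) had 75.4 and 82.1 CPM in WT and 124, 133 and 130 in MUT. The MUT libraries lay together, well above both WT libraries. HSF1 rose 1.63-fold (log2 0.71, SE 0.107, adjusted p 5.64e-05), the lowest p of any chaperone gene, and its log2 fold change ran from 0.475 to 0.783 over the alternatives. HSF2, a related factor active in development and in proteasome stress, had 57.9 and 56.9 CPM in WT and 48.4, 44.8 and 36.4 in MUT. It fell 1.33-fold (adjusted p 0.0378), but lost its call in 9 alternatives, among them without WT replicate 1 (0.132), WT replicate 2 (0.18) or MUT replicate 3 (0.133) and in DESeq2 (0.183). The count of HSF1 over that of HSF2 was 1.30 and 1.44 in WT and 2.57, 2.98 and 3.56 in MUT.

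**Figure D3:**
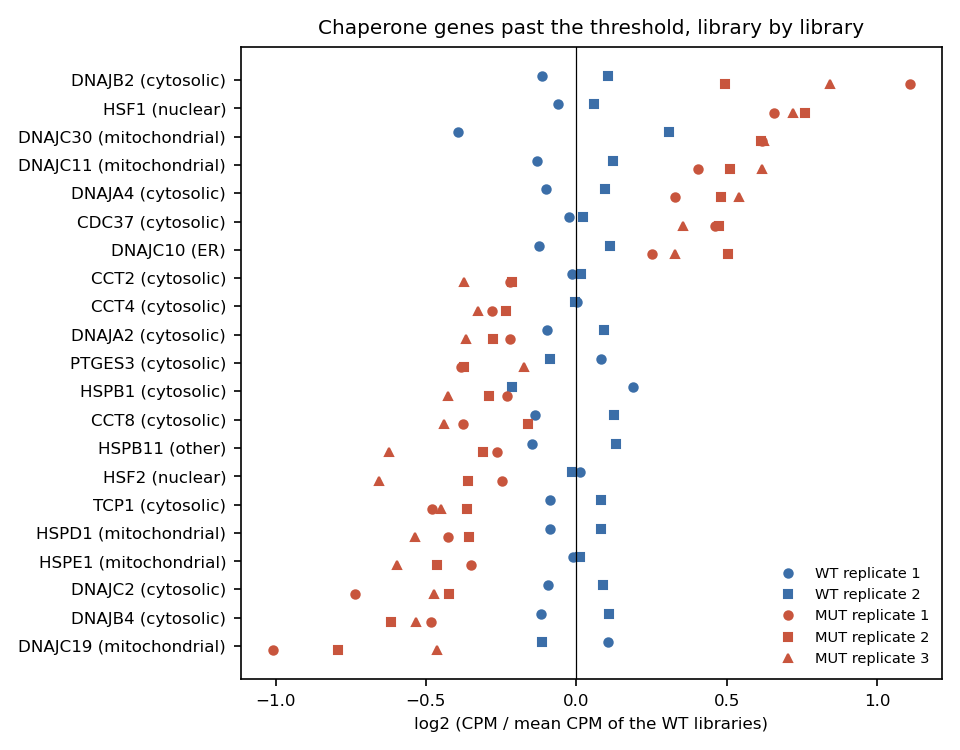
Each of the 21 chaperone genes past the threshold, with the log2 ratio of its CPM to the mean of the WT libraries for every library (blue WT, red MUT, one marker shape per replicate number). HSF1, HSPD1, HSPE1 and TCP1 show WT libraries close together and MUT libraries apart from them, while HSPB1, CCT8 and DNAJC30 show WT libraries that differ from each other.

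Promoter windows were searched because HSF1, whose known binding sequence is the heat shock element, was among the genes that rose. RefSeq windows of GRCh38.p14 matched 85 of the 95 genes. The heat shock element was searched on both strands as GAANNTTC or TTCNNGAA. The extended element, which contains the short one, was GAANNTTC followed by NNGAA, or TTCNNGAA followed by NNTTC. At least 1 short match was present in 17 of the 85 windows (20%), beside 13.7% of all 27305 windows of the reference table and 10.5% of those of genes in the count table. The cytosolic windows held 15 of these matches among 54 (27.8%), the ER windows 0 of 13 and the mitochondrial windows 2 of 10, namely HSPA9 and DNAJC15. The extended element was found in 4 chaperone windows (4.71%), those of HSPA8, HSPA6, DNAJA1 and DNAJB6, beside 0.487% of all windows. The ER stress element, CCAAT and CCACG with 9 bases of any kind between them, on either strand, was found in HSPA5 and HSP90B1 alone among the 85, beside 0.0806% of all windows.

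These windows show how the elements sit by location, with matches in capitals. HSPA8 (chr11:123062087-123062386, minus strand) holds 2 extended elements, and HSPA1A (chr6:31815293-31815592, plus strand) 1 short one that its divergent neighbour HSPA1L shares. TCP1 (chr6:159789553-159789852, minus strand) holds 1 short element far from its start. HSPA5 (chr9:125241294-125241593, minus strand) and HSP90B1 (chr12:103930160-103930459, plus strand) hold ER stress elements, 1 in the first and 2 in the second.
HSPA8: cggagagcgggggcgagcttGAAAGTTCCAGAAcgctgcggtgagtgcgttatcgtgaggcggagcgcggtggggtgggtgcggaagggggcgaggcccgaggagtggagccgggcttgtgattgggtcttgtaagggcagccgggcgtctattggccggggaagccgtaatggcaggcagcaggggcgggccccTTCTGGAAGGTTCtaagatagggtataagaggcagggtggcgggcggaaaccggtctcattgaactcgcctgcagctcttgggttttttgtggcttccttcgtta
HSPA1A: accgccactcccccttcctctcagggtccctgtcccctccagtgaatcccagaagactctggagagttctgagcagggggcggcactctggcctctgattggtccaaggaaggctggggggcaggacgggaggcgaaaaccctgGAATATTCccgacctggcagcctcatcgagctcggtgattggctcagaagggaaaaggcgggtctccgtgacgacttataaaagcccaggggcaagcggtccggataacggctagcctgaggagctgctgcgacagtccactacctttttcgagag
TCP1: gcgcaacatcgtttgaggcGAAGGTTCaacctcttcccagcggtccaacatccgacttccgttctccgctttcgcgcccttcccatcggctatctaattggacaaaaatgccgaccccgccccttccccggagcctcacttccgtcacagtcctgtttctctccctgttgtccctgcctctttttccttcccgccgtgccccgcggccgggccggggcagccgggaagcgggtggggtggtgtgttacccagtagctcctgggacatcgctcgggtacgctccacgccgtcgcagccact
HSPA5: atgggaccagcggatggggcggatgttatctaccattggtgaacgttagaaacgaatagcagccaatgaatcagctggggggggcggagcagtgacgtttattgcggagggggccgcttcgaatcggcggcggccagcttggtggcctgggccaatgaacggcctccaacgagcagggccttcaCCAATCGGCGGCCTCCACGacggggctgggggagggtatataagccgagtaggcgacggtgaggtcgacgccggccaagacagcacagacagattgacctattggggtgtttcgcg
HSP90B1: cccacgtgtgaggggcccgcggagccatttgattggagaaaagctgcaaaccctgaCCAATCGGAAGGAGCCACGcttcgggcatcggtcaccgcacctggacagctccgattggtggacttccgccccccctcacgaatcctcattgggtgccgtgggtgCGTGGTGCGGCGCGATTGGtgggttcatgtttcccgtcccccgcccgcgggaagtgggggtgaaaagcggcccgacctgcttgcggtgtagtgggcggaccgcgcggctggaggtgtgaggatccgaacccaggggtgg

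Of the 17 genes with a heat shock element match 13 were tested, of which 0 were higher, 3 (TCP1, CCT4 and HSPB1) were lower and 10 did not pass. Over all tested genes 10% were higher and 12.9% lower. The split depended on the fit: HSPA1A, one of the 13, was called higher in 8 of the 16 alternatives, and CCT4 and HSPB1 each lost their call in 9. The median log2 fold change of the 13 was -0.09, beside 0.02 for the 63 tested chaperone genes whose window held no match, of which 6 were higher and 11 lower. DESeq2 called none of the 13 higher, and 5 had an unadjusted p under 0.05 in edgeR. A match is a stretch of letters and not a measured binding site, and HSF1 binding was not measured here. Matches were also missed: the windows of BAG3, a target of HSF1, and of the stress-induced DNAJB1 held none. Only 1 window per gene was searched, so any other start of a gene was not. The DNAJB1 window (14529222 to 14529521) lies inside the span of the gene (14514769 to 14560391). Genes without a match can therefore still be HSF1 targets, and the medians do not compare targets with other genes.

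**Figure D4:**
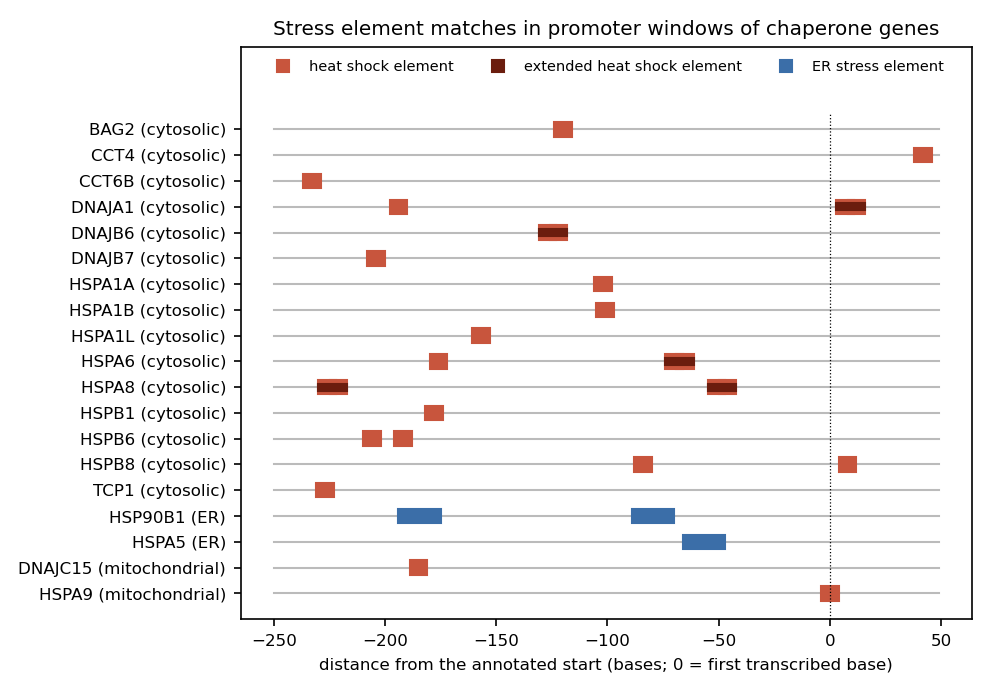
Positions of heat shock elements (red, with extended elements in dark red) and ER stress elements (blue) in the windows of the 19 chaperone genes that hold any, against distance from the annotated start in bases. Heat shock elements lie in windows of 15 cytosolic and 2 mitochondrial genes, and ER stress elements in HSP90B1 and HSPA5.

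Partners of the chaperones that carry other symbols were counted from a list of 51 genes, all of which were tested. Of these 7 were higher and 15 lower, beside 10% and 12.9% of all tested genes. In the cytosol 3 were higher and 11 lower of 28, with a median log2 fold change of -0.11. HSBP1, a small protein that binds HSF1 and curbs it, had 422 and 423 CPM in WT and 299, 269 and 310 in MUT, and fell 1.44-fold (adjusted p 0.000304). FKBP5, a prolyl isomerase of HSP90, fell 1.38-fold (0.000968), and PFDN4, a subunit of prefoldin, which hands actin and tubulin to TRiC, fell 1.4-fold (0.00106). PFDN4 lost its call without WT replicate 2 (0.0511). In the ER 2 were higher and 2 lower of 13, with P4HB, a disulphide isomerase, 1.35-fold higher (0.00386), and the lectin chaperone CANX and the secreted MANF 1.23-fold and 1.34-fold lower (0.0267 and 0.0311). P4HB lost its call with the trend of gene span and gene density removed (0.127), and CANX and MANF lost theirs without WT replicate 2 (0.279 and 0.195). CANX also lost it without MUT replicate 1 (0.153) or MUT replicate 2 (0.0631). Upper-quartile scaling (0.0568), library size only (0.0841) and thinning (0.0531) ended the call of CANX too. MANF also lost its call without MUT replicate 1 (0.126) or MUT replicate 2 (0.0776) and in DESeq2 (0.162). Upper-quartile scaling (0.0515), library size only (0.0739), thinning (0.578) and removal of the trend (0.0708) ended the call of MANF too. Its log2 fold change without WT replicate 1 was -0.441. In mitochondria 2 were higher and 2 lower of 10. The disaggregase CLPB rose 1.45-fold (0.000999) and the protease LONP1 1.39-fold (0.00535), the latter not without WT replicate 1 (0.087). CLPX, which unfolds proteins for the CLPP protease, fell 1.26-fold (0.0172) but not without WT replicate 1 (0.0628), WT replicate 2 (0.111), MUT replicate 1 (0.0844) or MUT replicate 3 (0.0505).

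The chaperone genes that rose lie among more genes than those that fell, as do all genes. The count took protein-coding genes whose lower coordinate lay within 500 kb of the gene's own, the gene itself included. By that count the 7 higher chaperone genes had a median of 20 and the 14 lower ones 9. The medians were also 20 and 9 for all 1203 higher and 1543 lower genes with a position. Across the 83 tested chaperone genes, which are not independent replicates, Spearman's rho between that count and the log2 fold change was 0.337, beside 0.269 across all tested genes. Once this trend and that of gene span were taken out of each library, 6 chaperone genes were higher and 9 lower. HSF1, HSPD1, HSPE1 and TCP1 were among those still called.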

How the data were processed

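Ribosome footprints of 25 to 35 nucleotides, from MNase-digested extract and the single-ribosome fraction of a sucrose gradient, were sequenced from 2 WT and 3 MUT libraries, per the labels' protocols. The deposited values are raw counts per gene, not normalized by the authors. The submitters' processing notes name FastQC 0.12.1, cutadapt 4.6, STAR 2.5.2b, DESeq2 1.42.0 and hg38. The sources used here do not give the counter, annotation, strand setting or treatment of multi-mapping reads. Columns were matched to samples by the codes in the header.

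The whole count table was fitted with edgeR 4.0.16 in R 4.3.3: filterByExpr (minimum count 10, total 15), TMM factors from 0.959 to 1.03, quasi-likelihood F test over 5 libraries with 3 residual degrees of freedom, and Benjamini-Hochberg adjustment over 11991 genes with a threshold of 0.05. Standard errors came from the F statistic. No library was a copy of another (chi-square of 1.91 to 8.06 per gene between pairs). On simulated counts for this comparison (11966 genes tested, 200 changed), 16% of 1.25-fold, 74% of 1.5-fold, 90% of 2-fold and 94% of 3-fold changes were recovered, with 10 false among 147 calls and 0 calls when nothing was changed. Alternatives were RLE, upper-quartile and library-size scaling, DESeq2 1.42.0, voom in limma 3.58.1, robust dispersion, no filter and a strict filter (30 counts in 2 libraries and a mean of 10 CPM), a replicate block, thinning and leaving out each library. Removal of the trend of gene span and density, by loess with a span of 0.5, was added after seeing the data.

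The members and lists were chosen with earlier results of these data known. Named genes are EIF6, every chaperone gene past the threshold, the TRiC subunits, the most abundant genes of each location, a fixed set of well-known chaperones, and the partners with the lowest p in each location. Other genes appear by name only to account for the set or for matches.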

Additional observations from a re-analysis of the deposited data

How the results depend on the processing

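Over 16 alternatives, 769 of 896 values of the 56 named genes stayed on their side of the threshold, 116 fell out of it, 11 entered it and 0 called values changed sign. Of the 21 called chaperone genes 4 passed in every alternative. The count of chaperone genes higher in MUT (7) was 13 with library size only, 4 in DESeq2 and 12 with the replicate block, and 2 to 9 when single libraries were left out. The count lower (14) was 6 with upper-quartile scaling, library size only or thinning to the smallest library, 9 in DESeq2 and with the trend of gene span and density removed, and 5 to 10 when single libraries were left out. For TRiC the count lower (4) was 1 with upper-quartile scaling, library size only or thinning, 2 with the trend removed, and 1 to 2 without single libraries. The cytosolic median (-0.07) was -0.023 with upper-quartile scaling, 0.0056 with library size only and -0.037 after thinning, and -0.076 to -0.028 without single libraries. The ER median (0.09) was 0.14 with upper-quartile scaling, 0.16 with library size only, 0.034 with the replicate block and 0.14 with the trend removed, and 0.035 to 0.12 without single libraries. The mitochondrial median (-0.11) ran from -0.21 to 0.018 without single libraries. The cause of these shifts was not tested, beyond the fewer samples or counts that leaving out or thinning leaves. Over all genes DESeq2 called 519 higher and 846 lower, against 1203 and 1544, and without WT replicate 2 edgeR called 509 and 732.

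The groups share only replicate numbers 1 and 2, and the labels tie no number to a culture or day. Deviations of same-numbered libraries correlated at 0.0793 and 0.148 across genes, and those of WT replicate 1 and MUT replicate 3 at 0.0624. Deviations of the 2 WT libraries mirror each other, so these correlations are not separate checks. With the replicate block 12 chaperone genes were higher and 15 lower, and 18 of the 21 calls were shared. MUT replicate 3 has no WT library of its number, so in that fit it adds nothing to the estimate of MUT over WT. The block fit thus compares replicates 1 and 2 only, with fewer residual degrees of freedom than the 3 of the main fit. Among the named genes HSPA1A was then called higher (adjusted p 0.0016), and DNAJB14 (0.0284) and DNAJC21 (0.0366) lower, while CCT2, HSF2 and HSPB11 were not called (0.0901, 0.0949 and 0.0688). In the simulation, which changed 200 genes drawn at random from the tested ones, most 1.25-fold changes were missed. In the data 22.9% of tested genes were called, a larger share than was changed in the simulation. The simulated recovery therefore need not hold for well-counted genes. CCT2, CCT4 and DNAJA2 were called here at 1.2-fold, 1.21-fold and 1.23-fold. Genes that did not pass may still differ by that much or by more. HSPB8, with low counts, did not pass at a fitted change of 1.86-fold.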

Other observations

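HSPB7, a small heat shock protein of heart and muscle, had 31 counts in MUT replicate 1 and 3, 3, 1 and 0 in WT replicates 1 and 2 and MUT replicates 2 and 3. It was not tested and was named after its values were seen. The other 11 chaperone genes below the filter had at most 7 counts in any library.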
